A study of Mus musculus with 2 samples.

Results

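Most of the genes described here encode parts of the motile cilium, the beating hair on the surface of airway ciliated cells. All were matched by name, with a rule set when earlier results of these data were known. They were the genes whose symbols begin with Dnah and a digit, Dnaic, Dnali, Cfap and a digit, Rsph, Tekt and a digit, Drc and a digit, or Spag. The rule found 72 of the 27998 genes in the tables, and the 65 with at least 20 UMIs over both libraries were kept. A UMI, or unique molecular identifier, stands for 1 captured RNA molecule. The 7 matched genes under 20 UMIs were Spag6, Spag17os, Rsph6a, Spag11a, Spag11b, Dnah2os and Dnah17.

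Both groups were C57Bl6 mice given bleomycin, which injures the lung and leads to fibrosis, on day 1. From day 15 to day 20 the animals received either vehicle or navitoclax (ABT-263), a small molecule that blocks anti-apoptotic BCL-2 family proteins, and lungs were taken at day 21. Sorted epithelial and stromal cells were pooled at 1:1 before droplet capture, so no uninjured lung and no endothelial or immune fraction was part of the design. Each group was 1 library, and the sources used here do not say how many mice stood behind it. Differences between the libraries, written below as vehicle and navitoclax, therefore have no replicate check and no test. Every interval below is at the 95% level and reflects counting error alone.

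The motile cilium is built on an axoneme, a ring of microtubule doublets around a central pair. Outer and inner dynein arms on the doublets hydrolyse ATP and slide neighbouring doublets past each other, while the nexin-dynein regulatory complex links the doublets so that sliding becomes bending. Radial spokes carry signals between the central pair and the dynein arms, and tektins and other proteins line the inside of the doublets and stiffen them. In the lung these cilia stand on multiciliated cells of the conducting airways, where they move mucus out of the organ, and most genes of the axoneme are switched on by the transcription factors FOXJ1 and RFX.

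Ciliated-like cells were found with 8 markers that are not among the members (Foxj1, Ccdc153, Tmem212, Sec14l3, 1110017D15Rik, Fam183b, Dynlrb2 and Riiad1). A cell needed at least 5 of the 8 and at least 20 of their UMIs per 10000. This gave 370 cells with 3794337 UMIs with vehicle and 424 cells with 5388242 UMIs with navitoclax. Their median depth was 9942.5 and 12333 UMIs, and their median mitochondrial share was 7.77% and 6.84%, in that order. Of cells with at least 5 markers, 8 with vehicle and 12 with navitoclax lay near the second limit, at 15 to 25 marker UMIs per 10000. Kept barcodes with 3 or 4 of the 8 markers, short of the first limit, numbered 153 and 245. The median share of endothelial, immune, basal and smooth muscle markers in these cells was 0 in both libraries. Club and secretory markers held a median of 101 and 104 UMIs per 10000, AT2 markers 20.2 and 22.6, transitional epithelial markers 19.4 and 21.0, and AT1 markers 7.06 and 8.24, vehicle first. Fibroblast markers held 0 and 0.699. The libraries had 20 cell barcodes in common, of which 1 was a ciliated-like cell.

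Compared with other cells, most of the members were far higher in the ciliated-like class. Of the 65 kept genes, 62 had their highest level there among the 5 classes that held 50 or more cells in each library, whereas 36.9% of the 16027 genes with at least 20 UMIs did. Smaller classes were left out of this ranking, among them AT1-like (116 and 38 cells) and club-like (66 and 47 cells). Tekt5, counted among the 62, was higher in AT1-like cells. Levels are given as CPM, the UMIs of a gene scaled to 1000000 UMIs of the class. Of 62 members with at least 20 UMIs in each library, 53 were at least 10-fold higher in ciliated-like cells than in all other analysed cells, in the vehicle and in the navitoclax library alike, against 6.91% of all genes. For 45 of them the difference was at least 100-fold in both, against 2.72% of all genes. Rsph1, a protein of the radial spoke head (chr17:31255019-31277383, minus strand, mm10), had the most UMIs of any member in ciliated-like cells. Its level was 1091 (1058 to 1125) CPM with vehicle and 1047 (1019.8 to 1075) CPM with navitoclax. In all other cells it was 1.56 and 3.34 CPM, so that 96.9% and 95.4% of its UMIs in analysed cells came from the ciliated-like class.

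**Figure D1:**
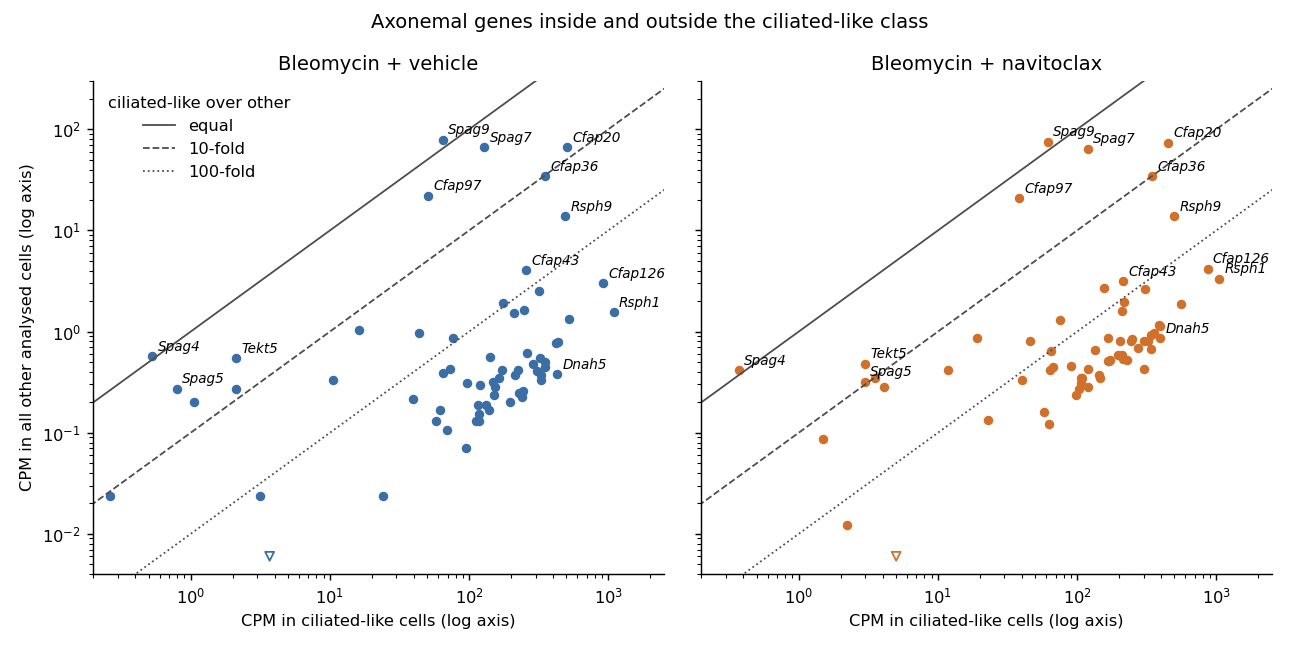
Level of each of the 65 kept genes in ciliated-like cells (horizontal axis, CPM) against its level in all other analysed cells (vertical axis, CPM), both on log axes, with 1 panel per library and lines at equal levels and at 10-fold and 100-fold. An open triangle marks Cfap73, which had no UMI outside the class; Cfap20, Cfap97, Spag7 and Spag9 lie above the 10-fold line in both panels and Cfap36 lies just below it.

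Detection per cell showed the same separation. With every cell thinned to 2000 UMIs, Rsph1 was seen in 88.7% (85.0 to 91.8) with vehicle and 87.7% (84.2 to 90.8) with navitoclax among ciliated-like cells. In fibroblast-like cells, which carry no motile cilium and serve as the background, it was seen in 0.373% (0.193 to 0.651) with vehicle and 0.869% (0.551 to 1.30) with navitoclax. Dnah5, a heavy chain of the outer dynein arm, was seen in 56.5% (51.2 to 61.6) with vehicle and 53.9% (48.9 to 58.8) with navitoclax among ciliated-like cells. Without thinning the values for Dnah5 were 93.0% and 91.3%, at the greater depth of whole cells, and its share of thinned fibroblast-like cells was 0.0311% and 0.227%.

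Because the members were expressed together in 1 cell class, their promoters were searched for the sites of the factors named above. RefSeq (GRCm38.p6) held a promoter of 250 bases before to 50 bases after the start for 45 of the 53 genes with a 10-fold difference. A full X-box, the paired site of RFX factors, was searched as the arms GTTNCC and GNAAC with 3 bases between them, on both strands, and occurred in 5 of the 45 (11.1%), Cfap44, Cfap45, Cfap61, Spag16 and Tekt4, and in 0.936% of 27025 gene promoters of the same length. The single arm GTTGCC, which overlaps the full form, occurred in 18 of the 45 (40%) and in 14.1% of all promoters. The forkhead site TGTTTAC occurred in 2 of the 45 (4.44%) and in 4.05% of all, and CCAAT in 19 (42.2%) and in 41.1%. A match describes these letters only and is neither a bound site nor a cause. The sequences below show 3 of the full X-boxes in windows of 100 bases that lie within the 250 bases before the start, with the matched letters in capitals. Spag16 encodes a central apparatus protein, Cfap45 a protein inside the doublets, and Cfap44 a part of the tether of an inner dynein arm.
Spag16 (chr1:69826824-69826923, plus strand): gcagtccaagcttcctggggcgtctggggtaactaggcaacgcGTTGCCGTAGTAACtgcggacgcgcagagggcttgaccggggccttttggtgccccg
Cfap45 (chr1:172521030-172521129, plus strand): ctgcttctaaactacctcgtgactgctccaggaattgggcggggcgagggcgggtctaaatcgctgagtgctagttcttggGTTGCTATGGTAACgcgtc
Cfap44 (chr16:44394699-44394798, plus strand): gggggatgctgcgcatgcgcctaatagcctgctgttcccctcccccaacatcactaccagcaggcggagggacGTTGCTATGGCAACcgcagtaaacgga
In Spag16 the match ran from base -103 to -90 counted from the RefSeq start, in Cfap45 from -19 to -6, and in Cfap44 from -27 to -14. GENCODE M21 starts Cfap45 further upstream, at chr1:172520801, so in that annotation its match lies inside the gene. The 3 genes were expressed in ciliated-like cells at 154 and 169 CPM, 319 and 307 CPM and 326 and 324 CPM, vehicle first in each pair.

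The main comparison asked whether axonemal genes differed between the libraries within ciliated-like cells. They were nearly equal. The summed level of the 65 genes was 13031 CPM (12916 to 13146) with vehicle and 12542 CPM (12447 to 12636) with navitoclax, a ratio of 0.962 (0.951 to 0.974). Of the 62 members with at least 20 UMIs in the class over both libraries, 2 were at least 1.5-fold higher in the navitoclax library, beside 4.6% of the 11439 genes tested the same way, and 0 were at least 1.5-fold lower, beside 3.38%. Both of the higher ones, Dnah8 and Rsph3b, rested on few molecules. The share of members past 1.5-fold in either direction was 3.23%, below the 7.98% of all genes. The share of all genes past 1.5-fold varied with depth, at 3.89% with at least 50 UMIs in the class and 25.8% with no minimum. Members and all genes were not matched for depth, so the lower share is not read as a trait of the members.

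Within that band more members had a ratio below 1 than above it. The median log2 ratio, computed on CPM + 5, was -0.05 for the members and 0.01 for all genes tested. A ratio below 1 was found for 40 of the 62 (64.5%) and for 48.5% of all genes. The counting interval lay wholly below 1 for 14 members, beside 5.48% of all genes, and wholly above 1 for 3, beside 6.65%. For the other 45 it included 1. Counting intervals narrow with depth, and members and all genes were not matched for depth here. Among the 57 members with at least 50 UMIs in the class, ratios ran from 0.755 for Cfap97 to 1.19 for Rsph3a. The ratio of summed levels was 0.903 when cells were classed by clustering and 0.994 when barcodes that met 2 marker gates were kept. The class from clustering held 3861658 UMIs with vehicle and 5905127 with navitoclax, beside 3794337 and 5388242 in the gated class. It drew on a cluster of 182 cells, of which 167 met the ciliated gate and 152 of those a second gate too.

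**Figure D2:**
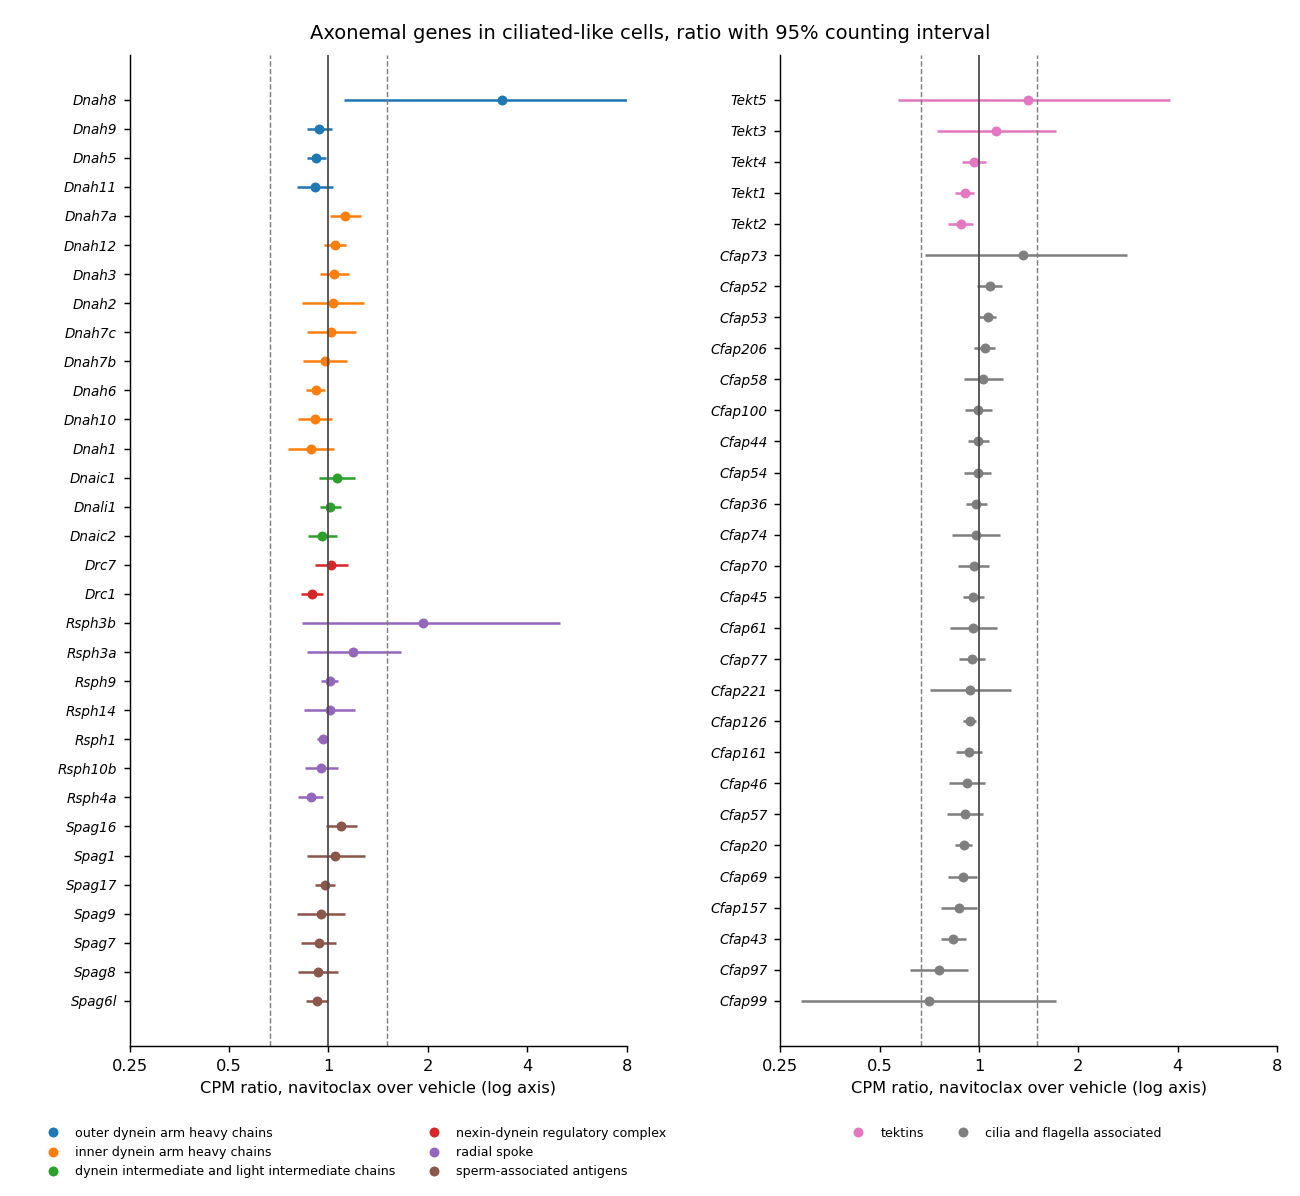
Ratio of CPM in ciliated-like cells, navitoclax over vehicle, for the 62 tested members (points, log axis) with 95% counting intervals (bars), grouped by family; the solid line is at 1 and dashed lines at 1.5-fold in each direction. Most points lie between 0.835 and 1.13, and the long bars belong to genes with few UMIs, such as Dnah8, whose bar runs past the axis to 13.5.

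Outer dynein arms supply most of the power of the beat. Their heavy chains, counting Dnah5, Dnah8, Dnah9 and Dnah11, summed to 794 CPM with vehicle and 736 CPM with navitoclax, a ratio of 0.927 (0.884 to 0.972). Dnah5 (chr15:28203752-28472052, plus strand), the heavy chain found along the whole cilium, had 429 (409 to 451) CPM with vehicle and 395 (378 to 412) CPM with navitoclax. Its ratio was 0.919 (0.862 to 0.981), and the level in the vehicle library was the higher. Dnah9, which pairs with it in the outer part of the cilium, had 244 and 229 CPM, with a ratio of 0.939 (0.861 to 1.02). Dnah11, which takes that place near the base, had 119 and 109 CPM and a ratio of 0.909 (0.803 to 1.03). The intervals of the last 2 genes included 1. Dnah8, a heavy chain known from sperm, had only 4 and 19 UMIs in ciliated-like cells, a ratio of 3.34 (1.11 to 13.5).

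Inner dynein arms shape the bend. Of the 10 kept heavy chains of this group, the 9 tested summed to 1406 CPM with vehicle and 1389.7 CPM with navitoclax. The ratio was 0.988 (0.954 to 1.02), and the interval included 1. Dnah6 (chr6:73017606-73221651, minus strand) had 420.4 (400.0 to 442) CPM with vehicle and 385 (368 to 401) CPM with navitoclax, a ratio of 0.915 (0.857 to 0.977). Dnah7a (chr1:53397006-53706784, minus strand) had 149 (137 to 162) CPM with vehicle and 168 (157 to 179) CPM with navitoclax and a ratio of 1.13 (1.01 to 1.253). That direction turned with cells thinned to 2000 UMIs, at 0.961, and the interval included 1 with cells classed by clustering and with at most 10% mitochondrial UMIs. Dnah12 had 288 and 302 CPM, Dnah3 164 and 171 CPM, and Dnah10, which forms a double-headed arm with Dnah2, had 133 and 121 CPM. Their intervals included 1, as did those of Dnah1, Dnah2, Dnah7b and Dnah7c. The near-identical copies Dnah7a, Dnah7b and Dnah7c may not be counted cleanly. In the last 600 bases of their transcripts, 46.3% of the 50-base words of Dnah7a also occurred in Dnah7c and 24.5% in Dnah7b, and the sources used here do not say how the counting treated shared reads. Dnah14 had 1 and 8 UMIs in the class and was not tested.

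The smaller dynein subunits did not differ beyond counting error. Dnaic1 and Dnaic2, the intermediate chains of the outer arm, had 113 and 119 CPM and 173 and 166 CPM. Dnali1, a light intermediate chain of inner arms, had 349 and 354 CPM with a ratio of 1.01 (0.944 to 1.09). The intervals of Dnaic1, 1.06 (0.937 to 1.20), and Dnaic2, 0.959 (0.866 to 1.06), also included 1. Of the nexin-dynein regulatory complex, Drc1 (chr5:30281388-30366695, plus strand), which is needed to assemble the complex, had 308 (291 to 326) CPM with vehicle and 275 (262 to 289.8) CPM with navitoclax and a ratio of 0.894 (0.827 to 0.966). Drc7 had 139.7 and 143 CPM and a ratio of 1.02 (0.912 to 1.14).

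Radial spoke genes summed to 2039 CPM with vehicle and 1969 CPM with navitoclax, a ratio of 0.966 (0.938 to 0.995). Of the spoke head genes, Rsph1 had a ratio of 0.960 (0.922 to 0.999). Rsph4a had 239 (223 to 255) CPM with vehicle and 210.5 (198 to 223) CPM with navitoclax, a ratio of 0.882 (0.808 to 0.964). Rsph9 had 492 and 496 CPM and a ratio of 1.01 (0.950 to 1.07), with an interval that included 1. The interval of Rsph1 also included 1 in 6 of 11 alternatives, among them the stricter gate, where its ratio was 0.961 (0.923 to 1.0004). Rsph10b had 142 and 135 CPM, and its exons overlap those of Pms2 over 85 bases and those of Gm42421 over 325 bases, so part of its count may belong to those genes. Rsph14 had 57.5 and 57.9 CPM. Rsph3a and Rsph3b, copies of a gene of the spoke stalk, had 61 and 103 UMIs and 8 and 22 UMIs, and their 3′ ends shared 87.7% of 50-base words, so the split between them is uncertain.

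Of 8 central pair genes among the members, 2 had intervals below 1, beside 5.48% of all genes, and 6 had intervals that included 1. Spag17 had 349 and 342 CPM with a ratio of 0.978 (0.911 to 1.05), and Spag16 had a ratio of 1.09 (0.986 to 1.22). Spag6l, their partner on the central pair, had 329.7 and 305 CPM and a ratio of 0.924 (0.858 to 0.995). Cfap54 and Cfap46, of central pair projections, had 197 and 195 CPM and 116 and 107 CPM, with intervals that included 1. Cfap69, from the same apparatus, had 176 and 157 CPM and a ratio of 0.893 (0.806 to 0.990). Cfap221 and Cfap74, also of these projections, had ratios of 0.941 (0.713 to 1.247) and 0.978 (0.828 to 1.16).

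Tektins line the inside of the doublets together with several Cfap proteins. The 5 tektins summed to 952 CPM with vehicle and 874 CPM with navitoclax, a ratio of 0.918 (0.879 to 0.959). Tekt1 (chr11:72344722-72362442, minus strand) had 432 (412 to 454) CPM with vehicle and 391 (375 to 408) CPM with navitoclax, a ratio of 0.905 (0.848 to 0.966). Tekt2 had 249 and 219 CPM and 0.880 (0.807 to 0.959), and Tekt4 had 259 and 249.6 CPM and 0.965 (0.889 to 1.05). Tekt3 had 40 and 64 UMIs and Tekt5 8 and 16 UMIs. Cfap53, which lines the doublets and helps to dock outer arms, had 520.2 (498 to 544) CPM with vehicle and 553 (533 to 573) CPM with navitoclax. Its ratio was 1.06 (1.004 to 1.13), and it was one of the 3 members with an interval above 1. The ratio fell to 0.991 with cells classed by clustering, and the interval included 1 in 5 of 11 alternatives. Cfap52, another protein inside the doublets, had 225 and 243 CPM and a ratio of 1.08 (0.989 to 1.18). Cfap45 had a ratio of 0.963 (0.893 to 1.04), Cfap161 of 0.931 (0.852 to 1.02) and Cfap77 of 0.952 (0.869 to 1.04).

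Among the remaining Cfap genes, those with intervals below 1 come first. Cfap43 (chr19:47736857-47919287, minus strand), the partner of Cfap44 in the inner arm tether, had 256 (240.3 to 273) CPM with vehicle and 214 (202 to 227) CPM with navitoclax. Its ratio was 0.835 (0.766 to 0.911), while that of Cfap44 was 0.995 (0.925 to 1.07). With cells thinned to 2000 UMIs, the ratio of Cfap43 was 1.07, so its direction turned with this thinning. Cfap97 (chr8:46151771-46195590, plus strand) had 50.9 (43.9 to 58.6) CPM with vehicle and 38.4 (33.4 to 44.0) CPM with navitoclax and a ratio of 0.755 (0.618 to 0.924). Cfap20 (chr8:95420249-95434869, minus strand), at the inner junction of the doublet, had 504 (481 to 527) CPM with vehicle and 452 (435 to 471) CPM with navitoclax and a ratio of 0.898 (0.846 to 0.954). Cfap126 (chr1:171113918-171126967, plus strand), also called Flattop, which positions basal bodies, had 922 (892 to 953) CPM with vehicle and 864 (839.6 to 889) CPM with navitoclax and a ratio of 0.937 (0.897 to 0.980). Cfap157 had 119 and 103 CPM and 0.868 (0.766 to 0.986). Cfap206, at the base of a radial spoke, had 325 and 339 CPM and a ratio of 1.04 (0.968 to 1.12). The other Cfap genes not named with a ratio had intervals that included 1.

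Lists of other motile cilium genes are described by their counts and medians, beside the median of -0.05 over the members and 0.01 over all genes. Of all genes tested, 7.98% were past 1.5-fold in either direction, 6.65% had intervals above 1 and 5.48% had intervals below 1. The lists are short, so a count of 0 past the fold is not far from that share. Among assembly factors, which build dynein arms in the cytoplasm, 0 of 11 tested were past 1.5-fold in either direction, with a median log2 ratio of -0.04. Dnaaf1 had 99.4 and 79.2 CPM, a ratio of 0.798 (0.693 to 0.919), and Dnaaf5 had 51.9 and 66.4 CPM, a ratio of 1.28 (1.07 to 1.53). The 14 central pair and spoke genes of other names also had 0 past 1.5-fold, with 5 intervals below 1 and a median log2 ratio of -0.10. The lowest was Hydin, a very large protein of a central pair projection, with 312 (295 to 331) CPM with vehicle and 238 (225 to 251) CPM with navitoclax and a ratio of 0.761 (0.702 to 0.824). Of the 6 other genes of the regulatory complex, none passed 1.5-fold and the median was -0.13. Iqcd had 74.1 and 54.4 CPM, a ratio of 0.734 (0.621 to 0.868), and Iqcg had 0.863 (0.795 to 0.938). None of 6 docking and ruler genes, of 9 other proteins inside the doublets or of 9 other dynein light and intermediate chains was past the fold, with medians of -0.06, -0.06 and 0.00. Enkur, of the doublet lumen, had a ratio of 0.867 (0.810 to 0.928), and Dynll1, a light chain shared with many other complexes, had 1.12 (1.09 to 1.14).

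Transport and tubulin genes had no member past the fold, beside 7.98% of all genes tested. Of all genes, 6.65% had intervals above 1 and 5.48% had intervals below 1. Intraflagellar transport, which carries parts into the growing cilium, had 0 of 27 genes past 1.5-fold, with 1 interval above and 5 below 1 and a median log2 ratio of -0.09. Ift88 had 219 and 191 CPM, a ratio of 0.872 (0.795 to 0.957). The BBSome, a transport complex at the cilium base, had 0 of 9 past the fold, 0 intervals that left out 1 and a median of -0.08. Of 6 tubulins, 0 passed it and 2 had intervals below 1, with a median of -0.14, and only 1 was at least 10-fold higher in ciliated-like than in other cells in both libraries. Tubb4b, the main β-tubulin of the axoneme, had 3394 and 2858 CPM, a ratio of 0.842 (0.823 to 0.862).

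The list of regulators of multiciliation and centriole amplification had a median of 0.08. Of its 11 tested genes, 2 were at least 1.5-fold higher in the navitoclax library, beside 4.6% of all genes, and 0 were lower, beside 3.38%. Plk4, the kinase that starts centriole duplication, had 53 and 126 UMIs and 14.0 and 23.4 CPM, a ratio of 1.67 (1.21 to 2.35). Foxn4, a factor of cells that are making centrioles, had 7 and 19 UMIs and a ratio of 1.91 (0.769 to 5.38), whose interval included 1. Foxj1, itself a gate marker, had 812 and 915 CPM and a ratio of 1.13 (1.08 to 1.18). Trp73, a regulator upstream of Foxj1, had 0.895 (0.760 to 1.05).

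Cells with at least 2 of 6 markers of centriole amplification (Deup1, Ccno, Cdc20b, Mcidas, Foxn4 and Plk4) numbered 33 of 370 ciliated-like cells with vehicle, or 8.92% (6.22 to 12.3), and 55 of 424 with navitoclax, or 12.97% (9.92 to 16.5). They were deeper, with medians of 12443 and 14956 UMIs against 9723 and 11955 in the others. At equal depth, with 2000 UMIs per cell, a looser measure was read, at least 1 marker UMI. It was met by 11.6% (8.47 to 15.3) and 12.99% (9.88 to 16.6) of cells, and these intervals overlapped. This is not the share with at least 2 markers, so it does not settle whether that share differed at equal depth. Plk4, 1 of the 6, was higher with navitoclax in summed counts, as given above. The members were about as abundant in cells with at least 2 of the markers as in the rest. Their summed level with against without the markers had a ratio of 0.984 (0.958 to 1.01) with vehicle and 1.01 (0.987 to 1.03) with navitoclax. Of 57 members with enough UMIs, 0 were at least 1.5-fold higher in both libraries, beside 1.21% of 9933 genes, and 0 were at least 1.5-fold lower in both, beside 1.74%. Dnah5 had a ratio of 0.801 (0.680 to 0.940) with vehicle and 1.09 (0.977 to 1.21) with navitoclax.

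Cell by cell, the members held a narrow share of each transcriptome. The median ciliated-like cell gave 1.32% of its UMIs to them in the vehicle library (quartiles 1.19 and 1.45) and 1.27% in the navitoclax library (1.13 and 1.39). The libraries overlapped over nearly their whole range. At 2000 UMIs per cell the quartiles were 1.12% and 1.52% with vehicle and 1.05% and 1.45% with navitoclax. Cells with 0.6% to 1% were 20 of 370 with vehicle, or 5.41% (3.33 to 8.22), and 46 of 424 with navitoclax, or 10.8% (8.05 to 14.2). Cells under 0.6% were 2 and 1. The median cell had UMIs of 42 members with vehicle and 45 with navitoclax, where cells were deeper, and 19 and 18 after thinning. In AT2-like cells, the surfactant-producing cells of the alveolus, the median share was 0.0286% and 0.0289%.

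**Figure D3:**
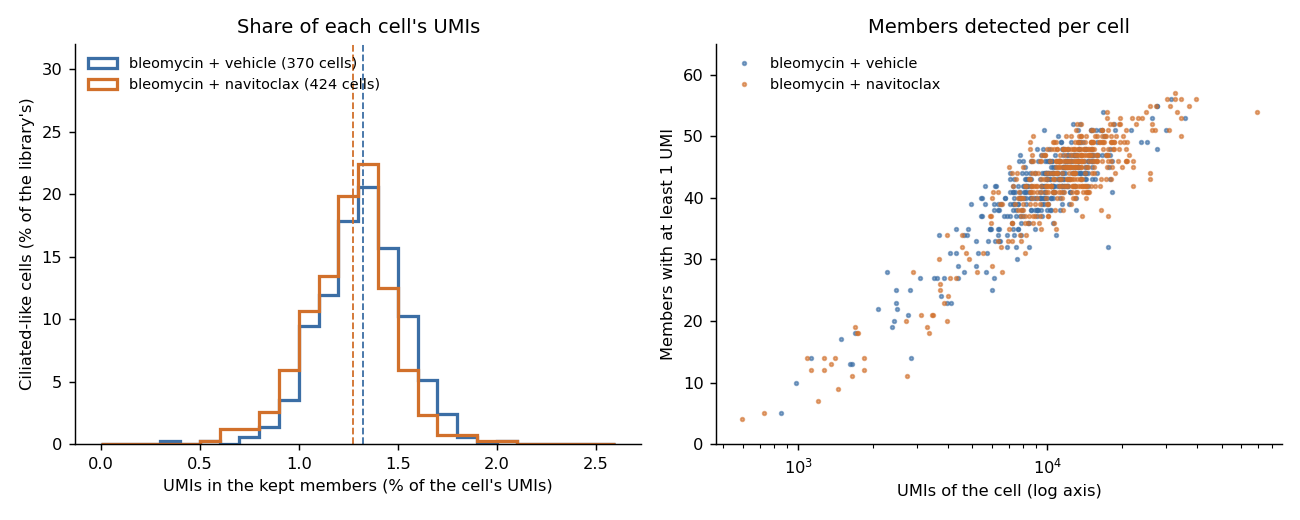
Left, the share of each ciliated-like cell's UMIs that fell in the 65 kept genes (horizontal axis, %) as the percent of cells per library in bins of 0.1, with dashed lines at the medians of 1.32% (vehicle, blue) and 1.27% (navitoclax, orange). Right, the number of members with at least 1 UMI against the cell's UMIs on a log axis, 1 point per cell, which rises with depth in both libraries.

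Barcodes that met the ciliated gate and a second gate were treated as doublets and left out. Those that met the ciliated and club gates, 23 with vehicle and 17 with navitoclax, held medians of 50629 and 37916 UMIs and gave 0.271% and 0.493% of them to the members. In number of molecules this was 139 and 170.0 member UMIs per barcode, beside 131.5 and 153 in ciliated-like cells. For the ciliated and alveolar gates the medians were 135.5 and 159.5 member UMIs, in 28 and 52 barcodes, and for the ciliated and mesenchymal gates they were lower, at 129 and 125, in 26 and 30 barcodes. Ciliated-gate barcodes over the mitochondrial limit of 15%, 90 and 69 in number, still gave a median of 1.10% and 1.07% of their UMIs to the members.

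A minority of the members was expressed widely. Spag9, an adaptor that links motors to lysosomes and scaffolds JNK signalling (chr11:93996091-94126085, plus strand), was no higher in ciliated-like cells than elsewhere, with 64.8 (57.0 to 73.5) and 61.6 (55.2 to 68.6) CPM. In fibroblast-like cells it had 111 (107 to 115) and 114 (110.0 to 119) CPM and in smooth muscle and pericyte-like cells 127 (97.0 to 163) and 128 (101 to 159) CPM. Spag7 had 128 and 119.5 CPM in ciliated-like cells and 71.3 and 66.6 CPM in AT2-like cells. Cfap97 was 2.31 and 1.83 times its level in other cells, in the vehicle and navitoclax library, and Cfap20 7.53 and 6.15 times. Cfap36, which binds a small GTPase of cilia, was 10.3 and 10.1 times higher, and its next highest level was in AT1-like cells, the flat cells of gas exchange, with 101 (84.9 to 120.0) and 165 (129.9 to 207) CPM. The AT1-like class held 116 and 38 cells, of which the second number is under the 50 used for comparisons between libraries.

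**Figure D4:**
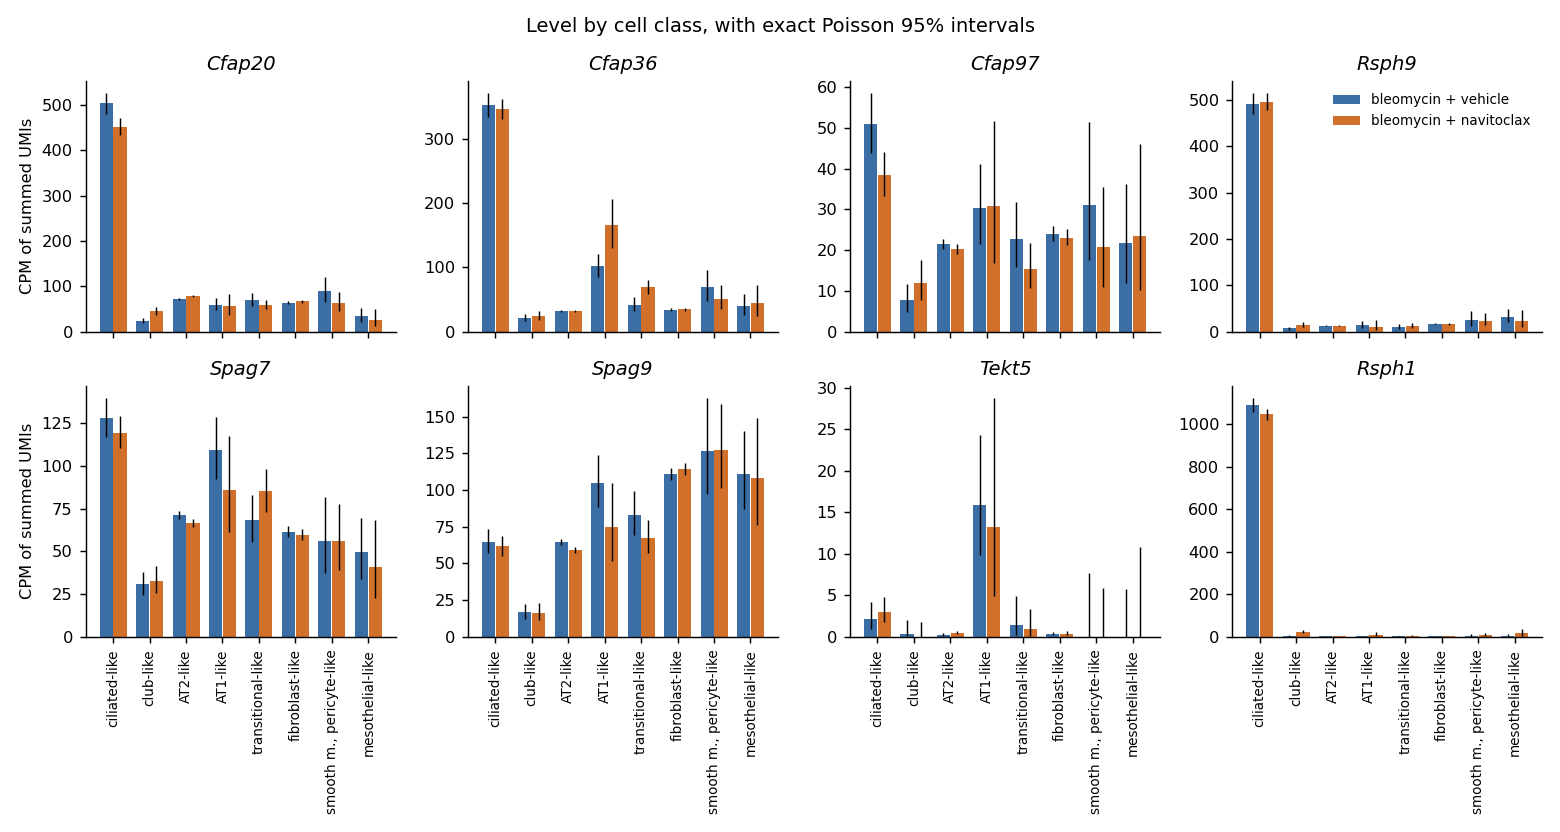
CPM of summed UMIs in 8 cell classes for 7 members with expression outside ciliated-like cells and, for comparison, Rsph1; blue bars are the vehicle and orange bars the navitoclax library, with exact Poisson 95% intervals, and each panel has its own scale from 0. Spag9 is lower in ciliated-like than in fibroblast-like cells in both libraries, and Tekt5 is highest in AT1-like cells.

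Rsph9 stood between the groups, with 35.6 and 35.9 times its level elsewhere and 17.1 and 16.9 CPM in fibroblast-like cells. Tekt5, a tektin known from sperm, had 15.9 (9.83 to 24.3) and 13.2 (4.85 to 28.8) CPM in AT1-like cells, from 21 and 6 UMIs, and 2.11 (0.910 to 4.15) and 2.97 (1.70 to 4.82) CPM in ciliated-like cells. Spag5, or astrin, a protein of the mitotic spindle, was found mainly in cells with at least 4 of 6 cycling markers, with 60.8 (35.4 to 97.4) and 37.7 (22.7 to 58.8) CPM from 8 and 16 cells. In ciliated-like cells it had 3 and 16 UMIs. Spag4, a nuclear envelope protein, had 2 and 2 UMIs in ciliated-like cells and 1.24 and 0.902 CPM in fibroblast-like cells. Spag4 and Spag5 match the name rule without being parts of the axoneme, as does Spag1, a dynein assembly factor of the cytoplasm, with 43.5 and 45.7 CPM in ciliated-like cells. Cfap73 had no UMI outside the class, where 14 and 27 UMIs were counted within it.

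Outside the ciliated-like class, members were found at low levels, and in AT2-like cells these leaned to the navitoclax library. Of 48 members with at least 20 UMIs in AT2-like cells, 15 had intervals above 1, beside 14.4% of all genes tested there, and 3 had intervals below 1, beside 14.2%. In fibroblast-like cells, 6 of 40 had intervals above 1, which is near the 14.9% of all genes, and 0 had intervals below 1, beside 14.0%. Rsph1 had 1.23 and 2.18 CPM in AT2-like cells, a ratio of 1.77 (1.28 to 2.47), and 1.76 and 3.32 CPM in fibroblast-like cells, a ratio of 1.88 (1.30 to 2.76). Dnah5 had 11 and 28 UMIs in AT2-like cells, a ratio of 2.52 (1.22 to 5.62). Summed over the 53 genes with a 10-fold difference, the level in AT2-like cells was 69.0 and 75.9 CPM, a ratio of 1.10 (1.05 to 1.15). Without Cfap36 and Rsph9 the ratio in AT2-like cells was 1.32 (1.23 to 1.43), so it depended on which genes were summed. In fibroblast-like cells it was 1.13 (1.07 to 1.19) with Cfap36 and Rsph9 and 1.28 (1.18 to 1.38) without them. Rsph3a was kept in these sums. In both libraries its level in AT2-like cells was a larger share of its ciliated-like level than that of Rsph9. Whether cells outside the class express Cfap36 and Rsph9 themselves was not tested.

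The 53 genes were chosen as at least 10-fold higher in ciliated-like than in all other cells. Low levels outside the class therefore follow from that choice. The median of the 53 genes in AT2-like cells was 0.113% of the ciliated-like level with vehicle and 0.214% with navitoclax, and in fibroblast-like cells 0.223% and 0.296%. Ciliated-like cells held 3.87% of all UMIs with vehicle and 5.47% with navitoclax, a ratio of 1.41. Free RNA of these cells in the suspension was not measured, and its part in the result was not tested. Cfap36 was at 9.18% and 9.13% of its ciliated-like level in AT2-like cells, well apart from that median in both libraries.

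**Figure D5:**
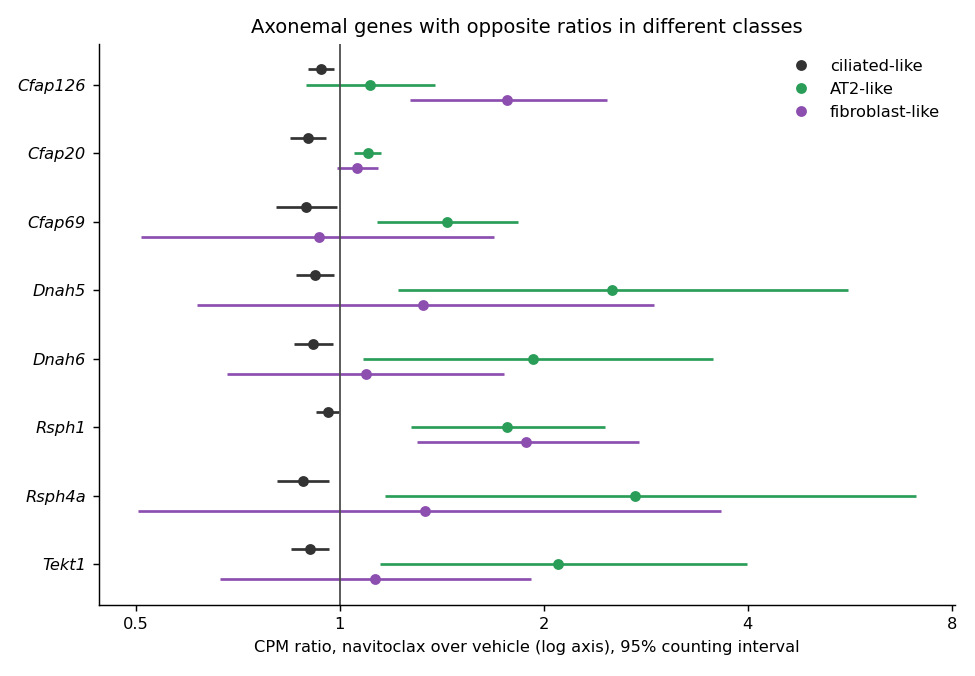
Ratio of CPM, navitoclax over vehicle (log axis), with 95% counting intervals, for 8 members whose interval lay below 1 in ciliated-like cells (black) and above 1 in AT2-like (green) or fibroblast-like cells (purple). The black points lie between 0.882 and 0.960, and the wide bars outside the class rest on as few as 8 UMIs.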

How the data were processed

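The deposited files were UMI count matrices, genes by cell barcode, from 1 Chromium 3′ library per group, whose headers name Cell Ranger 4.0.0. The deposited counts were not normalized, per the file headers and the whole-number values. The submitters' processing notes name mm10 as the build, and further settings of the alignment and counting are not stated there. Free RNA was not subtracted.

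Barcodes were kept with 500 or more genes and no more than 15% mitochondrial UMIs, 7396 with vehicle and 6445 with navitoclax, from 97958947 and 98517048 UMIs. Each was classed by marker gates, and barcodes in 2 gates (267 and 253) were removed as doublets. Scrublet (scanpy 1.11.5, expected rate 6%), which marked 222 and 205, was an alternative, as were Leiden clusters (leidenalg 0.10.2). UMIs were summed per class and library. A level has an exact Poisson interval, a ratio a conditional exact binomial one and a share a Clopper-Pearson one (scipy 1.17.1). They cover counting error only, since PCR, cells and animals add error that 1 library cannot show. A gene was tested, in the sense of compared, with at least 20 UMIs in the class. With 1 library per group there is no test, and called means past 1.5-fold. The ratio and its interval were run on simulated Poisson counts. These held no variation between cells or libraries, so the run checks the computation and not the error in these data.

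The members and all gene and marker lists were chosen with earlier results of these data known. Members were named by rule. These were the 12 with the highest level in ciliated-like cells, up to 10 per direction with at least 50 UMIs and an interval that leaves out 1, those highest in another class, near-identical copies, and up to 3 genes per list. Further members are named for their role. Deup1 and Dnaaf5 were matched through older symbols. Gene positions are from GENCODE M21 and promoters from RefSeq (GRCm38.p6).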

Additional observations from a re-analysis of the deposited data

Results flagged for a closer look

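For 8 members the ratio of navitoclax to vehicle had a counting interval below 1 in ciliated-like cells and above 1 in another class. The share of all genes with such opposite intervals was not computed, so the number 8 cannot be called high or low. Of all genes, 5.48% had intervals below 1 in ciliated-like cells. Intervals above 1 were found for 14.4% in AT2-like and 14.9% in fibroblast-like cells. Differences of these ratios between classes were not tested, as each group had 1 library. In AT2-like cells, Rsph4a of the radial spoke head had a ratio of 2.73 (1.17 to 7.08), beside 0.882 (0.808 to 0.964) in ciliated-like cells. Dnah5, the outer arm heavy chain, had 2.52 (1.22 to 5.62) beside 0.919 (0.862 to 0.981). Tekt1 had 2.10 (1.15 to 3.98) beside 0.905 (0.848 to 0.966), and Dnah6 of the inner arms had 1.93 (1.08 to 3.55) beside 0.915 (0.857 to 0.977). Cfap69 of the central pair had 1.44 (1.14 to 1.83) beside 0.893 (0.806 to 0.990). Cfap20, which AT2-like cells express at 71.9 and 79.2 CPM, had 1.10 (1.05 to 1.15) beside 0.898 (0.846 to 0.954).

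Rsph1 had a ratio of 1.77 (1.28 to 2.47) in AT2-like and 1.88 (1.30 to 2.76) in fibroblast-like cells, beside 0.960 (0.922 to 0.999) in ciliated-like cells, where its interval included 1 in 6 of 11 alternatives. Cfap126 had 1.77 (1.27 to 2.48) in fibroblast-like cells, beside 0.937 (0.897 to 0.980). Apart from Cfap20, these members stood outside the class at under 5 CPM.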

How the results depend on the processing

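The summed level of the members stayed below 1 in the ratio of navitoclax to vehicle under each of 10 other ways of choosing or scaling the cells. It was 0.903 with Leiden clusters, whose class held more UMIs, above all with navitoclax (5905127 beside 5388242). With doublets kept it was 0.994, where the median log2 ratio of the members was 0.00877 and that of all genes 0.06. The cause was not tested. The number of members at least 1.5-fold higher, 2 in the report, was 1 with at most 10% mitochondrial UMIs, 0 after thinning, 0 with at least 50 UMIs, and 5 with no minimum. It was 4 at the looser fold tried and 1 at a fold of 2. The number lower, 0 in the report, was 1 with Leiden clusters, 1 with at most 30% mitochondrial UMIs and 2 at the looser fold. Of 18 named members, 10 kept the direction of their ratio in all 11 settings. Cfap53 was at 0.991 with Leiden clusters, and after thinning Cfap43 was at 1.07 and Dnah7a at 0.961. Of 13 named members whose interval left out 1, 11 had an interval that included 1 after thinning, which left 726000 and 816000 UMIs in the class. Over all 11 alternatives this happened in 6 for Rsph1, 5 for Cfap53, 3 for Dnah7a, 2 for Cfap126, 2 for Dnah5, 0 for Tekt2 and 1 for each other. The count of members highest in ciliated-like cells was 62 or 63 throughout. Leaving out cells with 2 or more centriole amplification markers, chosen after seeing the data, gave a summed ratio of 0.959. No paired analysis was possible because each group had 1 library. Depth limits members under 50 UMIs, such as Dnah8, Rsph3b and Tekt5.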
